A study of Mus musculus with 167 samples.

Results

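The CD45+ gate of fibroblasts transduced with PIB was followed from day 3 to day 9. PIB is the mixture of Pu.1 (the product of Spi1), Irf8 and Batf3, delivered by lentivirus. The comparison set the 4 libraries of PIB d9 CD45+ against the 4 of PIB d3 CD45+, with the 3 of PIB d6 CD45+ placed between them, which is 11 of the 167 libraries of the series. Libraries were chosen by their titles alone, and no measured value entered that choice. The cells were C9a.MEF, mouse embryonic fibroblasts homozygous for both the Clec9a Cre allele and the Rosa26 tdTomato reporter, so that cells that have switched on Clec9a become tdTomato+. Every library came from live (DAPI-) cells taken 3, 6 or 9 days after transduction and grown on gelatin in serum-containing medium. Within the PIB CD45+ gate the day is the one labelled difference between the groups. The labels give CD45+ alone for the sort, and whether tdTomato+ cells were kept in or left out of it is not stated. RNA came from 5000 cells per library. Nothing in the labels says that replicates were separate cultures, so each p-value measures the spread between these samples, which may be technical. Courses in 2 other sorts served for comparison. These were PIB cells sorted as tdT+CD45+ (double positive, 4 libraries on day 3 and 5 on day 9) and CD45+ cells after PIP, a mixture of Pu.1, Irf4 and Prdm1 (5 and 4 libraries). Both came from C9a.MEF. The question was how the RNA of cells that had acquired CD45 differed between the start and the end of this period.

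Conventional dendritic cells of type 1 (cDC1) take up dead cells and present their antigens on MHC class I and class II molecules. Irf8 and Batf3 are needed for their development, and Pu.1 is required across the myeloid lineages. A fibroblast that is pushed towards such a cell has to acquire genes of antigen presentation and leukocyte signalling, lower its matrix and contractile genes, and often leaves the cell cycle. CD45, the product of Ptprc, is a phosphatase found on nearly all nucleated blood cells and absent from fibroblasts.

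Levels are given as CPM, the counts scaled to a common library size after normalisation. Deposited totals were 12490109 to 14937609 counts on day 3, 9744484 to 14226336 on day 6 and 6912082 to 14012646 on day 9, so that a count of 0 still allowed 0.201 to 0.434 CPM (an upper limit of 3 counts, for counting error only). A gene was called when the Benjamini-Hochberg adjusted p of edgeR's quasi-likelihood test over all 18226 genes was under 0.05 and the change was at least 2-fold. Of these genes 945 (5.18%) were called between day 9 and day 3, of which 605 (3.32%) were higher on day 9 and 340 (1.87%) were lower. The median log2 change over all genes was -0.0041. An unadjusted edgeR p under 0.05 was found for 5353 of the 18226 genes. Separation of all 8 libraries was a looser measure: for 1622 genes (8.9%) every day 9 library lay above every day 3 library, and for 2170 (11.9%) every one lay below, together 20.8% of the genes.

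A few libraries stood apart from their groups. PIB d3 CD45+ replicate 3 carried 3094 CPM summed over 21 macrophage and monocyte genes, against 353 to 439 CPM in the other 3 day 3 libraries. PIB d3 CD45+ replicate 4 and PIB d6 CD45+ replicate 3 resembled each other in low Ptprc (31.1 and 40.5 CPM), low Dcn (8.71 and 10.6 CPM) and high Acta2 (1672 and 843 CPM). Results were therefore also computed without these 3 libraries, a choice made after seeing the data, which leaves 2 libraries on day 3 and 2 on day 6. The counts became 515 higher and 206 lower, of which 328 and 171 were among the genes called with all libraries. Single libraries also weighed on the counts. The number of genes called higher was 304 without PIB d3 CD45+ replicate 1, 314 without PIB d3 CD45+ replicate 4, 272 without PIB d9 CD45+ replicate 3 and 230 without PIB d9 CD45+ replicate 4. The number called lower was 184 without PIB d3 CD45+ replicate 4, 161 without PIB d9 CD45+ replicate 3 and 125 without PIB d9 CD45+ replicate 4.

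The sort marker and the transduced factors were present on every day. Ptprc measured 106, 103, 176 and 31.1 CPM in the day 3 libraries, 144, 136 and 40.5 CPM on day 6 and 61.4, 56.2, 87.1 and 70.0 CPM on day 9. The day 3 and day 9 ranges overlapped, and its log2 change of -0.60 ± 0.50 (SE) did not pass the test (edgeR adjusted p = 0.46). In untransduced C9a.MEF the median Ptprc level was 0.315 CPM and in splenic cDC1 818 CPM, on a scale of all counts on which the day 3 and day 9 medians were 102.5 and 70.4 CPM. In bulk RNA of this kind fewer cells of a type and less RNA per cell cannot be told apart. Spi1 was at 179, 199, 317 and 207 CPM on day 3 and 96.7, 124, 172 and 151 CPM on day 9. Its 2 ranges did not overlap, but the log2 change of -0.73 ± 0.24 had an edgeR adjusted p of 0.064. Irf8 differed by -0.42 ± 0.22 (edgeR adjusted p = 0.22) and Batf3 by -0.60 ± 0.28 (0.18). These counts cannot separate the delivered copies from the cells' own genes.

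**Figure D1:**
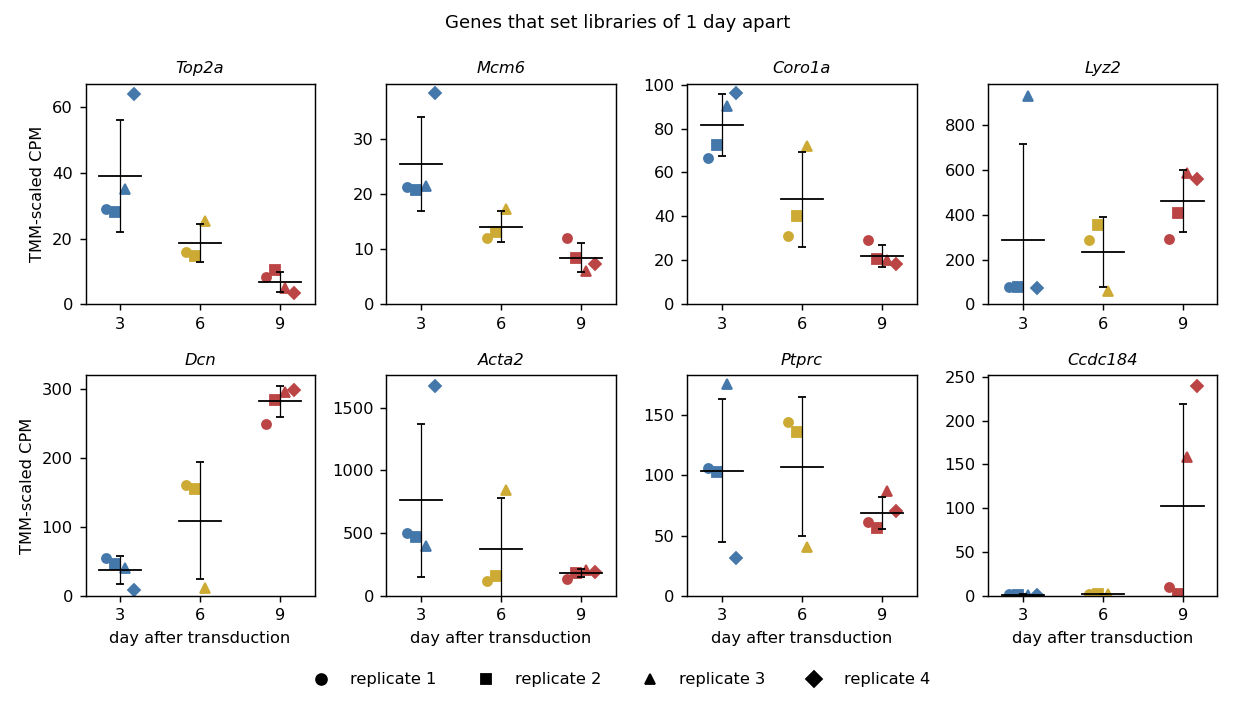
Levels of 8 genes in each library of the PIB CD45+ gate: the y axes give CPM, the x axes the day, each point is a library with its replicate number as the marker shape, and bars show the mean and SD of a day. Top2a, Mcm6 and Coro1a sit lower on day 9 than on day 3 in every library, while Lyz2 on day 3 is spread by replicate 3 at 929.9 CPM and Acta2 by replicate 4 at 1672 CPM.

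A group of antigen presentation genes was higher on day 9. Of 10 tested genes of the class II pathway 4 were called higher and 0 lower, with a median log2 change of 0.75. The 4 were H2-Aa and H2-Ab1, the 2 chains of I-A, H2-Eb1, the beta chain of I-E, and H2-DMb1, a chain of the H2-DM peptide exchanger. Again 4 were called without the 3 libraries that stood apart, with a median of 1.12. The stretches of 250 bases before the annotated start of 3 of them (RefSeq, GRCm38.p6) are shown because these genes moved together. They were chosen after their values were seen. Capitals mark matches, on either strand, to the CCAAT box (CCAAT, reading ATTGG on the other strand), the X box core (GNNACNGAT), the core bound by interferon regulatory factors (IRF core, AANNGAAA) and the AP-1 element (TGANTCA).
H2-Aa, chr17:34287824-34288073, minus strand: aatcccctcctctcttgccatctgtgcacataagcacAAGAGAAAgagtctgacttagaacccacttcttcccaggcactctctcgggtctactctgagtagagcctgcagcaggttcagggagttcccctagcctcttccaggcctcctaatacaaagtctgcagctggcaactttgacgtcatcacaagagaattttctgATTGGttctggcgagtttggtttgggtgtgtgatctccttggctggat
H2-Eb1, chr17:34305617-34305866, plus strand: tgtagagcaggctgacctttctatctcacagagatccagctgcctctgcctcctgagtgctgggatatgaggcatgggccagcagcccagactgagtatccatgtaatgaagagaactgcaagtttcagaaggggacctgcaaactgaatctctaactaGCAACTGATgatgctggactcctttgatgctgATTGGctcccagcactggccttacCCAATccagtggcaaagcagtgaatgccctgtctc
H2-DMb1, chr17:34152941-34153190, plus strand: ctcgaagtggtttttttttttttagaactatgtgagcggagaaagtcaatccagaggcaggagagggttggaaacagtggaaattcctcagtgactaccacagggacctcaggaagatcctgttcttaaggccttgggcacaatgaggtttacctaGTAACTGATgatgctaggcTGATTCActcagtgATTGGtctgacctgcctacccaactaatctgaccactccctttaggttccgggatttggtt
An ATTGG lies 48 to 44 bases before the start in H2-Aa, 59 to 55 in H2-Eb1 and 61 to 57 in H2-DMb1. The X box core lies upstream of it at 91 to 83 bases in H2-Eb1 and at 94 to 86 in H2-DMb1. Of 32817 promoter windows of this length 33.8% hold CCAAT, 6.53% the X box core, 21.3% the IRF core and 6.75% the AP-1 element on either strand. Of the 7 tested class II pathway genes with a window, 5 hold CCAAT and 2 the X box core, against 40.2% and 6.57% of the 11680 tested genes with a window. These are matches of letters and not measured binding.

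H2-Aa was at 2.10, 2.87, 4.62 and 4.32 CPM on day 3, at 18.2, 17.3 and 26.3 CPM on day 6 and at 19.4, 19.4, 23.1 and 16.8 CPM on day 9. Every day 6 and day 9 library lay above every day 3 library, and day 6 and day 9 overlapped. The log2 change from day 3 was 2.56 ± 0.26 by day 6 (edgeR adjusted p = 0.0069) and 2.497 ± 0.25 by day 9 (7.6e-04). H2-Eb1 was at 3.999, 4.79, 8.02 and 2.44 CPM on day 3, 22.04, 21.7 and 25.6 CPM on day 6 and 22.2, 21.5, 26.96 and 25.1 CPM on day 9, a log2 rise of 2.31 ± 0.28 (edgeR adjusted p = 0.0022). H2-Ab1 went from 5.54, 10.1, 15.6 and 3.28 CPM on day 3 through 35.6, 46.4 and 35.9 CPM on day 6 to 43.3, 45.8, 56.9 and 49.7 CPM, a log2 rise of 2.504 ± 0.38 (edgeR adjusted p = 0.0054). In all 3 genes the day 6 libraries already lay above every day 3 library. H2-DMb1 overlapped between the days, at 4.56, 3.51, 8.55 and 3.00 CPM on day 3 and 6.48, 11.5, 11.8 and 11.5 CPM on day 9 (log2 change 1.08 ± 0.31, edgeR adjusted p = 0.044). Without PIB d3 CD45+ replicate 4 its log2 change was 0.90 (edgeR adjusted p = 0.105) and the count of the list was 3, while without PIB d3 CD45+ replicate 3 the count was 5, with H2-DMa added.

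Cd74, the invariant chain that escorts class II molecules, did not pass the test. It was at 153, 162, 192 and 54.2 CPM on day 3, 269, 316 and 188 CPM on day 6 and 204, 197, 295 and 233 CPM on day 9 (log2 change 0.73 ± 0.32, edgeR adjusted p = 0.16). The 2 end groups did not overlap. Ciita, the transactivator of class II genes, differed by -0.29 ± 0.41 (edgeR adjusted p = 0.67). The levels reached on day 9 were small beside those of splenic cDC1: on the scale of all counts the H2-Aa median was 0.0903 CPM in C9a.MEF, 3.52 and 19.8 CPM on days 3 and 9 and 2375 CPM in cDC1. For Cd74 these medians were 0.246, 155, 234 and 11180 CPM.

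In the class I pathway 4 of 18 tested genes were called higher and 0 lower, with a median log2 change of 0.31. H2-Q7, a class Ib molecule, was at 7.44, 7.98, 7.42 and 2.86 CPM on day 3, 32.4, 31.02 and 17.0 CPM on day 6 and 35.3, 33.2, 25.7 and 26.01 CPM on day 9 (log2 rise 2.23 ± 0.31, edgeR adjusted p = 0.0031). H2-K1, a classical class I heavy chain, was at 273, 293, 278 and 98.0 CPM on day 3 and 745, 525, 614 and 636 CPM on day 9 (1.42 ± 0.32, edgeR adjusted p = 0.020). The 2 groups stayed apart for both genes. The H2-K1 call was lost without PIB d9 CD45+ replicate 3 (edgeR adjusted p = 0.0508) or replicate 4 (0.0551), although the log2 change moved little, to 1.44 and 1.42. H2-Q4 and H2-D1, another class Ib and the other classical heavy chain, rose by 1.37 ± 0.24 and 1.15 ± 0.23, and the H2-D1 change was 0.98, under 2-fold, without PIB d3 CD45+ replicate 4. B2m, the light chain common to these molecules, differed by 0.34 ± 0.22 (edgeR adjusted p = 0.34). Genes of the H2 family are near-identical in places, and how reads that match several of them were shared out is not given in the sources used here.

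**Figure D2:**
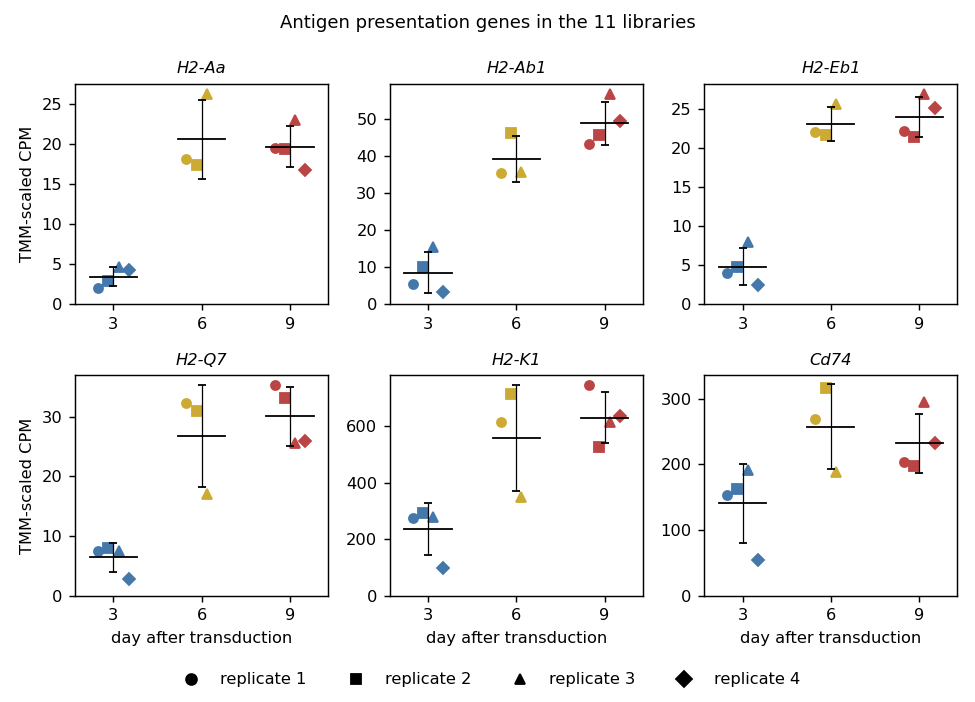
Levels of 6 antigen presentation genes in each library of the PIB CD45+ gate, in CPM, by day: points are libraries marked by replicate number, and bars show the mean and SD of a day. The class II genes H2-Aa, H2-Ab1 and H2-Eb1 are up by day 6, and their day 6 and day 9 libraries overlap. Replicate 4 of day 3 is the lowest point for H2-Q7 (2.86 CPM) and H2-K1 (98.0 CPM).

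Genes of cell division were lower on day 9. Of 22 genes of G2 and M phase 20 were called lower and 0 higher, with a median log2 change of -2.11, and for all 22 every day 9 library lay below every day 3 library. The count was 16, with a median of -1.53, without the 3 libraries that stood apart. It was 13 without either PIB d9 CD45+ replicate 3 or replicate 4 and 14 without PIB d3 CD45+ replicate 4, the library with the highest levels of these genes. Of 22 genes of S phase 7 were called lower and 0 higher (median -1.003), and 15 were separated. The count of S phase genes ran from 5 to 9 when 1 library was left out. The promoters of 2 genes of the first list are shown because these genes moved together, with capitals as above and also for the cell cycle homology element (TTTGAA, reading TTCAAA on the other strand) and the PU.1 element (GAGGAAG, reading CTTCCTC on the other strand).
Ccnb1, chr13:100786487-100786736, minus strand: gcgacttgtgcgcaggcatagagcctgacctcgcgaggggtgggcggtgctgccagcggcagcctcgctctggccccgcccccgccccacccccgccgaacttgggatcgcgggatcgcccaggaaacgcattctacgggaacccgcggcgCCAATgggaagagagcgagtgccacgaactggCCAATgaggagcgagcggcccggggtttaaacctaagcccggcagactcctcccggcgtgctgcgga
Top2a, chr11:99024190-99024439, minus strand: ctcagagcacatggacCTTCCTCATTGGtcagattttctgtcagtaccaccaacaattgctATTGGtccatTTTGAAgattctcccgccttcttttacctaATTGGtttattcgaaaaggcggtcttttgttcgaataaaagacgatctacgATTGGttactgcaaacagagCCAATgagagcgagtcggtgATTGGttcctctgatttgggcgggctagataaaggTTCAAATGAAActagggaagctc
Ccnb1 holds a pair of CCAAT boxes, 99 to 95 and 67 to 63 bases before the start. Top2a holds 6, of which 1 reads CCAAT and 5 read ATTGG, together with 2 matches to the cell cycle homology element, 1 to the PU.1 element next to an ATTGG, and 1 to the IRF core overlapping a TTCAAA. The cell cycle homology element is in 16.0% and the PU.1 element in 10.6% of all windows. Of 19 tested G2 and M phase genes with a window 17 hold CCAAT and 8 the cell cycle homology element, against 40.2% and 13.2% of the tested genes with a window. The count of matches is a description of these windows alone.

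Top2a, which untangles DNA before division, was at 28.97, 27.9, 35.1 and 63.8 CPM on day 3, 15.9, 14.6 and 25.2 CPM on day 6 and 8.28, 10.4, 4.97 and 3.59 CPM on day 9. Day 9 lay below both earlier days, with a log2 change of -2.50 ± 0.37 (edgeR adjusted p = 0.0051). Ccnb1, the mitotic cyclin, was at 6.45, 6.38, 5.75 and 12.6 CPM on day 3, 1.96, 2.04 and 6.30 CPM on day 6 and 1.66, 0.943, 1.30 and 0.769 CPM on day 9 (-2.75 ± 0.46, edgeR adjusted p = 0.0065). Bub1, a spindle checkpoint kinase, fell by 3.00 ± 0.58 on the log2 scale and Mki67, a marker of cycling cells, by 2.35 ± 0.44. PIB d3 CD45+ replicate 4 was the highest of its day for each of these 4 genes, with Mki67 at 124 CPM against 32.9 to 51.8 CPM in the other 3. Among the S phase genes Mcm6, a subunit of the replicative helicase, was at 21.3, 20.8, 21.5 and 38.3 CPM on day 3, 12, 13.2 and 17.2 CPM on day 6 and 12.1, 8.41, 6.03 and 7.30 CPM on day 9 (-1.59 ± 0.26, edgeR adjusted p = 0.0062). Uhrf1, which maintains DNA methylation at replication, fell by 1.93 ± 0.35. The calls of Top2a, Ccnb1, Bub1, Mcm6 and Uhrf1 held in every alternative computed. Of 18 cell cycle inhibitors and p53 targets 1 was called higher, the inhibitor Cdkn1c, at 1.96, 1.83, 1.36 and 2.58 CPM on day 3 and 4.83, 3.92, 7.80 and 9.23 CPM on day 9 (1.72 ± 0.43, edgeR adjusted p = 0.026). That call was lost without any of PIB d3 CD45+ replicates 1, 2 and 3 and PIB d9 CD45+ replicates 3 and 4, with adjusted p from 0.0517 to 0.0809.

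Part of the fibroblast matrix programme was higher on day 9. Of 34 matrix genes 8 were called higher and 1 lower, with a median log2 change of 0.55, and 19 were separated upward. The 8 were Dcn, Mmp2, Thbs2, Col3a1, Timp3, Col12a1, Timp1 and Lox, and the 1 was S100a4. Thbs2, a matricellular thrombospondin, was at 146, 128, 212 and 114 CPM on day 3, 189.9, 242 and 101 CPM on day 6 and 378, 533, 457 and 444 CPM on day 9. Its day 9 libraries lay above all others, with a log2 rise of 1.59 ± 0.26 (edgeR adjusted p = 0.0065) that held in every alternative. Dcn, the small proteoglycan decorin, was at 54.02, 45.9, 40.6 and 8.71 CPM on day 3, 160.5, 154 and 10.6 CPM on day 6 and 248, 284, 296 and 298 CPM on day 9 (2.92 ± 0.74, edgeR adjusted p = 0.034). Replicate 4 was the lowest of day 3, and the call was lost on leaving out any 1 of 8 libraries (PIB d3 CD45+ replicates 1 to 4, PIB d6 CD45+ replicate 2 and PIB d9 CD45+ replicates 1, 3 and 4), with adjusted p from 0.0506 to 0.0754. S100a4, a calcium-binding protein of motile fibroblasts, fell from 323, 292, 324 and 417 CPM to 119, 192, 91.4 and 101 CPM (-1.43 ± 0.23, edgeR adjusted p = 0.0054).

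The matrix count depended on single libraries and on the low-count filter. Without that filter 2 were called higher, and Dcn (edgeR adjusted p = 0.119), Mmp2 (0.0737) and Col3a1 (0.143) were not among them. It was 4 without PIB d3 CD45+ replicate 1 or 3 or PIB d9 CD45+ replicate 3 or 4, and 5 without PIB d3 CD45+ replicate 2 or PIB d6 CD45+ replicate 2. The number was again 8 without the 3 libraries that stood apart, with Lum, Pdgfra and Tnc in place of Mmp2, Timp1 and Lox. Fn1, fibronectin, the most abundant matrix gene that was not called, differed by 0.55 ± 0.20 (edgeR adjusted p = 0.095). On the scale of all counts the Dcn median was 581 CPM in C9a.MEF, 41.5 CPM on day 3, 299.9 CPM on day 9 and 0.879 CPM in cDC1. The Thbs2 medians were 2354, 134, 489 and 2.68 CPM in the same order. The day 9 levels of both genes thus lay between those of day 3 and those of untransduced fibroblasts. Fn1 did not share this placing, with medians of 8766, 11460, 17090 and 8.52 CPM in the same order. Its day 3 and day 9 medians both lay above that of untransduced fibroblasts. Of 14 contractile genes 0 were called higher and 1 lower, Cnn2 (-1.01 ± 0.26, edgeR adjusted p = 0.031), with a median of -1.01. Acta2, smooth muscle actin, was at 498, 468, 399.7 and 1672 CPM on day 3 and 134, 184, 208 and 188 CPM on day 9. The 2 groups did not overlap. On day 3 replicate 4 lay far above the other 3, and the log2 change of -2.09 ± 0.68 had an edgeR adjusted p of 0.070. Of the contractile genes 2 were called lower without the 3 libraries that stood apart, Acta2 and Tagln. The contractile count was 3 without PIB d6 CD45+ replicate 3, 2 without PIB d3 CD45+ replicate 3, and 0 without any other library of days 3 and 9 except PIB d9 CD45+ replicate 2. It was also 0 with unnamed gene identifiers left out, where the Cnn2 change was -0.98, under 2-fold. Of 19 mesenchymal transcription factors 1 was called, Twist2, higher by 1.09 ± 0.30 (edgeR adjusted p = 0.038), and its call was lost without those 3 libraries and without any 1 library except PIB d6 CD45+ replicates 2 and 3.

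**Figure D3:**
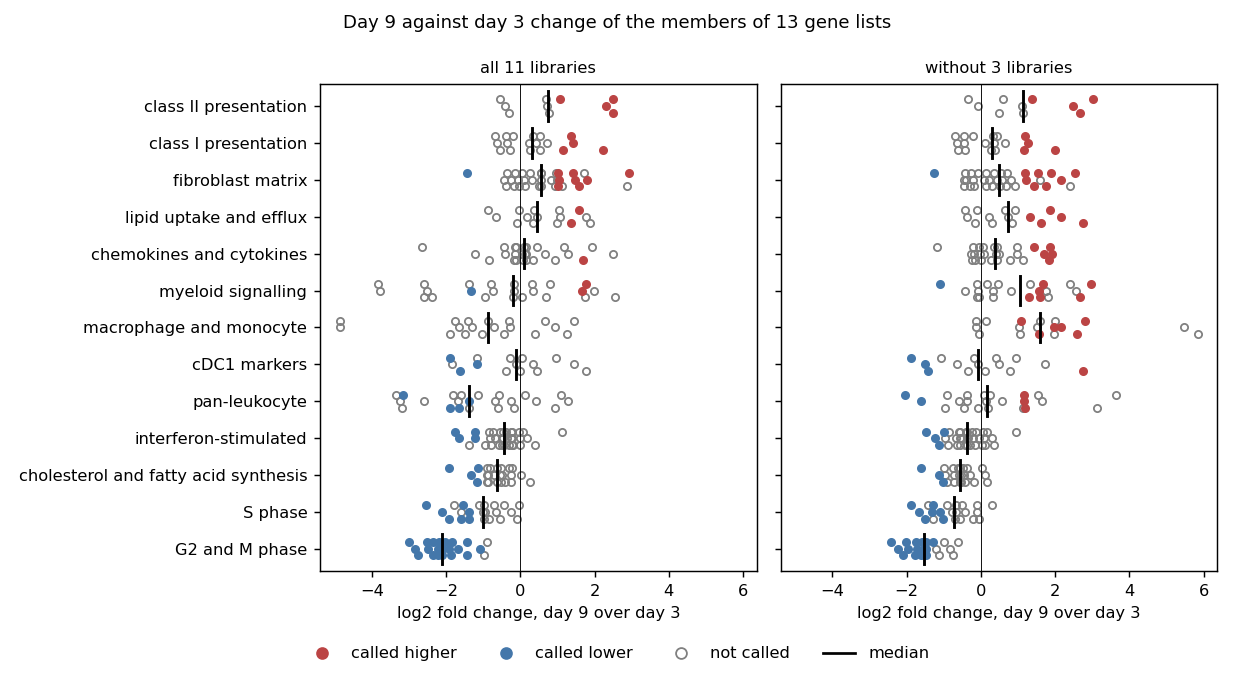
Log2 change from day 3 to day 9 of each member of 13 gene lists in the PIB CD45+ gate, with all 11 libraries and without the 3 that stood apart: red points were called higher, blue points called lower, open points were not called, and the line is the list's median. The G2 and M phase median lies at -2.11 and -1.53 in the 2 settings, while that of the macrophage and monocyte list is -0.87 and 1.58.

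Genes shared by leukocytes split in ways that hung on the libraries used. Of 23 tested pan-leukocyte genes 0 were called higher and 4 lower (Hcls1, Coro1a, Ptpn6 and Itgb2), with a median log2 change of -1.38. Coro1a, an actin regulator of leukocytes, was at 66.4, 72.7, 90.2 and 96.2 CPM on day 3, 30.9, 40.2 and 72.2 CPM on day 6 and 29.5, 20.7, 20.1 and 18.2 CPM on day 9. The day 9 libraries lay below all others, and the log2 change of -1.88 ± 0.26 (edgeR adjusted p = 0.0031) held in every alternative. Hcls1, a substrate of leukocyte tyrosine kinases, was at 24.1, 24.02, 96.8 and 55.98 CPM on day 3 and 6.76, 7.11, 4.97 and 3.59 CPM on day 9 (-3.15 ± 0.68, edgeR adjusted p = 0.020). That call was lost without PIB d9 CD45+ replicate 3 (edgeR adjusted p = 0.0608) or 4 (0.0637). Without either of those libraries 1 pan-leukocyte gene was called lower. The Ptpn6 call was lost without the same libraries (edgeR adjusted p = 0.0588 and 0.0652), and that of Itgb2, an integrin chain, without PIB d3 CD45+ replicate 1 or 3, PIB d9 CD45+ replicate 1, 3 or 4, or with day 6 left out of the fit. Both were under 2-fold without the 3 libraries that stood apart, at -0.96 and -0.91. In a fit with the other PIB gates 10 were called lower and 2 higher. Without the 3 libraries that stood apart 2 of 22 were called lower (Hcls1 and Coro1a) and 3 higher (Ikzf1, Plek and Cd53), and the median was 0.17.

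The median of the macrophage and monocyte list changed sign with the choice of libraries. Of 19 tested genes 0 were called in either direction with all libraries, and the median was -0.87. At an unadjusted p under 0.05 there were 4, beside 5353 of all 18226 genes. DESeq2's Wald test called 1 of the list higher and 1 lower. Without the 3 libraries that stood apart 6 of 18 were called higher (C1qc, Lyz2, Apoe, Msr1, Cd14 and Csf1r) and 0 lower, with a median of 1.58. Leaving out PIB d3 CD45+ replicate 3 alone gave 4 higher and a median of 0.89. Lyz2, the lysozyme of macrophages and granulocytes, was at 79.6, 76.8, 929.9 and 73.3 CPM on day 3, 289, 356 and 58.4 CPM on day 6 and 292, 406, 589 and 559 CPM on day 9. A single day 3 library lay above every day 9 library and the other 3 lay below them. The log2 change was 0.67 ± 0.88 with all libraries (edgeR adjusted p = 0.65), 2.62 without PIB d3 CD45+ replicate 3 (0.0233) and 2.59 without all 3 (0.0014). Csf1r, the receptor for the macrophage growth factor, was at 67.5 CPM in that library against 8.42 to 12.3 CPM in the rest of day 3 and 13.0 to 24.6 CPM on day 9. Itgam, the CD11b integrin chain, was at 49.7, 50.6, 255 and 23.01 CPM on day 3 and 57.2, 57.6, 20.2 and 7.82 CPM on day 9 (-1.40 ± 0.78, edgeR adjusted p = 0.26).

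Of 24 myeloid signalling genes 2 were called higher (Lilrb4a and Fgr) and 1 lower (Plcg2), with a median of -0.18. Lilrb4a, an inhibitory receptor, was at 46.4, 54.4, 56.1 and 30.3 CPM on day 3, 188, 149.9 and 56.8 CPM on day 6 and 212, 152, 124 and 147 CPM on day 9 (1.76 ± 0.34, edgeR adjusted p = 0.012). Plcg2, a phospholipase downstream of immune receptors, fell by 1.34 ± 0.25 on the log2 scale (edgeR adjusted p = 0.010). Both calls held in every alternative. Without the 3 libraries that stood apart 6 of 22 were called higher (Pirb, Clec4e, Lilrb4a, Cybb, Cd300a and Fcgr3) and Plcg2 lower, with a median of 1.04. The count of higher genes was 4 without PIB d3 CD45+ replicate 3 alone and 1 without any other single library except PIB d6 CD45+ replicate 3 and PIB d9 CD45+ replicate 2. Of 21 haematopoietic transcription factors 0 were called in edgeR, and 5 had an unadjusted p under 0.05, beside 5353 of all 18226 genes. DESeq2's Wald test called 2 of the 21 higher. There were 2 edgeR calls without PIB d3 CD45+ replicate 3 and 1 without PIB d6 CD45+ replicate 3 or PIB d9 CD45+ replicate 2 or 3.

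Of 15 tested cDC1 markers 0 were called higher and 3 lower, Naaa, Cd24a and Xcr1, with a median of -0.12. Naaa, a lysosomal amidase, was at 263, 292, 297 and 230.5 CPM on day 3, 101, 117 and 250.5 CPM on day 6 and 58.2, 55.3, 91.9 and 88.7 CPM on day 9 (-1.88 ± 0.28, edgeR adjusted p = 0.0049). Xcr1, the receptor for the chemokine Xcl1 and a marker that defines cDC1, was at 80.5, 84.3, 65.4 and 38.3 CPM on day 3, 71.7, 80.7 and 52.6 CPM on day 6 and 24.7, 35.8, 30.4 and 28.2 CPM on day 9 (-1.17 ± 0.23, edgeR adjusted p = 0.012). For both genes the day 9 libraries lay below all day 3 and day 6 libraries, and both calls held in every alternative. On the scale of all counts the Xcr1 median was 0.0386 CPM in C9a.MEF, 68.5 and 31.8 CPM on days 3 and 9 and 254 CPM in splenic cDC1. Cd24a, a surface glycoprotein, fell by 1.62 ± 0.33, and its call was lost without PIB d9 CD45+ replicate 4 (edgeR adjusted p = 0.0511). The count of cDC1 markers called higher was 1 without PIB d3 CD45+ replicate 3 or PIB d9 CD45+ replicate 1 and 2 without PIB d9 CD45+ replicate 2. Clec9a, the gene whose promoter drives the Cre of these cells, was at 0 in 6 of the 11 libraries and at most at 0.579 CPM, too low to test. Its alleles here carry Cre, so a low count does not check the reporter.

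The next lists hold markers of cDC2, of plasmacytoid dendritic cells (pDC) and of dendritic cell maturation. Of 11 tested cDC2 markers 0 were called in edgeR, and 4 had an unadjusted p under 0.05, beside 5353 of all 18226 genes. DESeq2's Wald test called 1 of the 11 higher. The edgeR count was also 1 without PIB d3 CD45+ replicate 4, PIB d6 CD45+ replicate 3 or any of PIB d9 CD45+ replicates 2, 3 and 4, and with unnamed gene identifiers left out. Of 9 pDC markers Klra17 was called higher (2.78 ± 0.58) and the nucleic acid sensor Tlr9 lower (-1.42 ± 0.41). The Klra17 call was lost without the 3 libraries that stood apart. The Tlr9 call was lost without any 1 library except PIB d3 CD45+ replicate 4 and PIB d6 CD45+ replicate 3, and its change was -0.86 without PIB d3 CD45+ replicate 3. Of 17 pan-dendritic and maturation genes 1 was called higher, Cd200, and 2 lower, the costimulatory ligand Cd86 (-2.24 ± 0.51) and the chemokine Ccl17 (-2.79 ± 0.73). The Cd200 call was lost without those 3 libraries together and without any 1 library except PIB d6 CD45+ replicate 3 and PIB d9 CD45+ replicate 2, and the Ccl17 call without PIB d3 CD45+ replicate 1, 2 or 4 or PIB d9 CD45+ replicate 1, 3 or 4 (edgeR adjusted p from 0.0517 to 0.0985). Cd86 was at 7.16, 6.30, 19.97 and 4.74 CPM on day 3 and 1.79, 2.25, 2.01 and 1.92 CPM on day 9. Its call (edgeR adjusted p = 0.020) was lost without any of PIB d9 CD45+ replicates 1, 3 and 4 (0.0537 to 0.0642).

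A few interferon-stimulated genes fell by day 9. Of 34 such genes 0 were called higher and 4 lower (Ifit2, Oasl1, Cmpk2 and Isg15), 30 had a log2 change below 0 and the median was -0.44, or -0.39 with again 4 calls without the 3 libraries that stood apart. The promoters of 2 of them are shown because these genes moved together, with capitals as above.
Isg15, chr4:156200819-156201068, minus strand: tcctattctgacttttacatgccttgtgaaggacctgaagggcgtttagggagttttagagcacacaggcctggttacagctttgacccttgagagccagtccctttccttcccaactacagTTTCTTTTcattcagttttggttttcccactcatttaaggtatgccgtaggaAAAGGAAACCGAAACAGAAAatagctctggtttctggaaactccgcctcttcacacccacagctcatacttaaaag
Oasl1, chr5:114922990-114923239, plus strand: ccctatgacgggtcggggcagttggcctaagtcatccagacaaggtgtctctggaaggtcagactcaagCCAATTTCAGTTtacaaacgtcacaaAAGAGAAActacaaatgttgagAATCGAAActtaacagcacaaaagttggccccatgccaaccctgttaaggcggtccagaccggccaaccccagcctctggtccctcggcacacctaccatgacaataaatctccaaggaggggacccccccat
Isg15 holds 4 matches to the IRF core, 3 of which overlap between 76 and 57 bases before the start, and Oasl1 holds 3. Of 25 tested interferon-stimulated genes with a window 18 hold the IRF core, against 19.6% of the tested genes with a window.

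Isg15, a ubiquitin-like modifier, was at 92.1, 85.7, 113 and 111 CPM on day 3, 51.4, 62.5 and 88.7 CPM on day 6 and 39.6, 53.4, 40.5 and 39.98 CPM on day 9 (-1.21 ± 0.18, edgeR adjusted p = 0.0040). Oasl1, a regulator of the interferon response, was at 39.6, 46.8, 67.0 and 38.2 CPM on day 3, 21.9, 19.6 and 39.9 CPM on day 6 and 18.2, 16.0, 13.0 and 13.3 CPM on day 9 (-1.66 ± 0.25, edgeR adjusted p = 0.0048). Day 9 lay below day 3 for the 2 genes, and below day 6 for Oasl1, while for Isg15 day 9 overlapped day 6. Their calls, and that of the nucleotide kinase Cmpk2 (-1.22 ± 0.25), held in every alternative, while that of Ifit2 (-1.76 ± 0.42) was lost without PIB d3 CD45+ replicate 3 or 4 or PIB d9 CD45+ replicate 1, 3 or 4, with adjusted p from 0.0580 to 0.0822.

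Among 26 chemokines and cytokines 1 was called higher and 0 lower, with a median of 0.11. That was Il6, an inflammatory cytokine, at 8.21, 7.58, 9.23 and 9.34 CPM on day 3, 23.3, 20.7 and 11.7 CPM on day 6 and 37.4, 31.3, 24.8 and 17.3 CPM on day 9 (1.69 ± 0.26, edgeR adjusted p = 0.0047). All day 9 libraries lay above all day 3 libraries. With the 3 libraries that stood apart left out 5 were called higher, Ccl6, Il33, Il6, Il1b and Il1rn. The count was 2 without PIB d3 CD45+ replicate 3 alone and 3 without PIB d6 CD45+ replicate 3 alone. Of 19 Toll-like receptors and adaptors the flagellin receptor Tlr5 was called higher, from 2.10, 1.75, 1.21 and 1.19 CPM to 5.24, 6.02, 12.5 and 6.92 CPM (2.29 ± 0.35, edgeR adjusted p = 0.0048), and Tlr9 lower. The count of higher Toll-like receptor genes was 3 without PIB d3 CD45+ replicate 3 and 2 without PIB d9 CD45+ replicate 2. Of 21 chemokine and growth factor receptors Il1r1, the interleukin-1 receptor, was called higher (1.46 ± 0.34) and Xcr1 lower. The Il1r1 call was lost without PIB d9 CD45+ replicate 3 (edgeR adjusted p = 0.0584) or 4 (0.0635). The receptor count was 2 without PIB d3 CD45+ replicate 2 or 4, 2 with unnamed gene identifiers left out and 3 without PIB d6 CD45+ replicate 3.

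Several genes of sterol and serine synthesis were lower on day 9. Of 24 genes of cholesterol and fatty acid synthesis 0 were called higher and 4 lower, among them the sterol pathway enzymes Idi1, Msmo1 and Cyp51. Their list had a median of -0.62, and 22 of 24 changes were below 0. Msmo1 was at 23.99, 22.6, 27.2 and 27.8 CPM on day 3, 9.24, 11.3 and 17.8 CPM on day 6 and 12.8, 10.9, 11.3 and 9.74 CPM on day 9 (-1.18 ± 0.19, edgeR adjusted p = 0.0062). Its day 6 libraries already lay below day 3 and overlapped day 9. Of 16 genes of the unfolded protein and amino acid response 2 were called lower, Phgdh and Psat1, enzymes of serine synthesis. Phgdh was at 81.7, 90.0, 81.7 and 148 CPM on day 3, 22.8, 31.2 and 93.6 CPM on day 6 and 22.8, 23.1, 25.9 and 22.9 CPM on day 9 (-2.08 ± 0.40, edgeR adjusted p = 0.012). The Psat1 call (-2.11 ± 0.46) was lost without PIB d9 CD45+ replicate 3 (edgeR adjusted p = 0.0518) or 4 (0.0622).

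Of 15 genes of lipid uptake and efflux 2 were called higher and 0 lower, 11 changes lay above 0 and 4 below, and the median was 0.45. Lpl, lipoprotein lipase, was at 87.5, 85.9, 150.9 and 83.5 CPM on day 3, 269, 280.1 and 114 CPM on day 6 and 318, 327, 287 and 292 CPM on day 9 (1.59 ± 0.28, edgeR adjusted p = 0.0078). Nr1h3, which encodes the sterol-sensing receptor LXR alpha, rose by 1.36 ± 0.35. With those 3 libraries left out 5 were called higher, with Cd36, Apoe and Pltp added. The count was 4 without PIB d3 CD45+ replicate 3 alone and 1 without PIB d3 CD45+ replicate 1, 2 or 4 or PIB d9 CD45+ replicate 1, 2 or 4. The Nr1h3 call was among those lost without PIB d3 CD45+ replicate 4 (edgeR adjusted p = 0.0739). Of 21 glycolysis and hypoxia genes 1 was called, Vegfa, higher by 1.68 ± 0.46, and its call (edgeR adjusted p = 0.041) was lost without any 1 of 9 libraries, which were all but PIB d6 CD45+ replicates 2 and 3 (0.0523 to 0.1019). Of 23 lysosomal genes and of 14 immediate early genes 0 were called by edgeR. At an unadjusted p under 0.05 there were 4 and 5, beside 5353 of all 18226 genes. DESeq2's Wald test called 1 immediate early gene higher, as did edgeR without PIB d9 CD45+ replicate 3. Of 13 mitochondrially encoded genes mt-Atp8 was called lower, and the list's median was -0.43. That count was 0 without PIB d3 CD45+ replicate 1 or PIB d9 CD45+ replicate 1, 3 or 4, 2 without PIB d3 CD45+ replicate 4 and 3 without PIB d9 CD45+ replicate 2.

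Other settings also moved these counts by over 1.5 times. In the fit with the other PIB gates, where 1078 genes were called higher and 537 lower, the higher calls were 3 for cDC1 markers, 4 each for chemokines and cytokines, their receptors and Toll-like receptors, and 5 for lipid uptake and efflux. In that fit 4 contractile genes were called lower, as were 3 macrophage and monocyte genes, and of the myeloid signalling genes 4 were called higher and 5 lower. Without the low-count filter 11 S phase genes, 3 contractile genes and 3 myeloid signalling genes were called lower. The calls of Ifit2 (edgeR adjusted p = 0.0814) and Vegfa (0.163) were lost without that filter. Leaving out the 3 libraries that stood apart gave 3 Toll-like receptor genes and 4 receptor genes called higher, lost the call of mt-Atp8 (edgeR adjusted p = 0.0872) and put Idi1 at -0.99, under 2-fold. DESeq2's Wald test called 3 chemokine and cytokine genes, 3 Toll-like receptor genes and 2 receptor genes higher and 3 contractile genes lower. Cnn2, close to 2-fold with all libraries, lay at -0.99 with DESeq2 size factors or its Wald test and at -0.80 without the 3 libraries that stood apart.

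The genes with the largest changes were taken from the called genes of at least 10 CPM that were separated between the days. The promoters of the 4 largest rises that have an entry in the promoter table are shown, as fixed by rule, with capitals as above.
Cxcl13, chr5:95956689-95956938, plus strand: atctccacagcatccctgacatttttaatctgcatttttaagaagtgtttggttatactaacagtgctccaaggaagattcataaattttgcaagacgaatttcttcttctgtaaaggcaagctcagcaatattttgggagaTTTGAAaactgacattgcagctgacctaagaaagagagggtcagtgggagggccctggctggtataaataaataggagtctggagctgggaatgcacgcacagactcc
Chil3, chr3:106167565-106167814, minus strand: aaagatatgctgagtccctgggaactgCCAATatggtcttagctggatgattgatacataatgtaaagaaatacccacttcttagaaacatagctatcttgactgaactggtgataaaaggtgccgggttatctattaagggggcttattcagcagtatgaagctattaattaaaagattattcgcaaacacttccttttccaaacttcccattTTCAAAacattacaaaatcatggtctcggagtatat
Tspan13, chr12:36042479-36042728, minus strand: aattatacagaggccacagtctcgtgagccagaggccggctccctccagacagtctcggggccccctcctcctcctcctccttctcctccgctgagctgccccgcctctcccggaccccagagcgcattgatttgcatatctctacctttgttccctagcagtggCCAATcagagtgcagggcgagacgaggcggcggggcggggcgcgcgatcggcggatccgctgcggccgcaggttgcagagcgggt
Prelp, chr1:133921402-133921651, minus strand: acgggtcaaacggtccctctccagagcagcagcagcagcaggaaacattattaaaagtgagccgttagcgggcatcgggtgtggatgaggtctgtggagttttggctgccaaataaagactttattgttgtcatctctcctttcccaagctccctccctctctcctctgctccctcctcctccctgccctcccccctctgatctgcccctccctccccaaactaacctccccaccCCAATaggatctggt
Chil3, Tspan13 and Prelp hold 1 CCAAT box each, and Cxcl13 and Chil3 hold 1 match each to the cell cycle homology element. No letters of the other motifs were found in these 4 windows, which says nothing about the factors.

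Cxcl13, a chemokine that attracts B cells, was at 2.31, 2.15, 2.27 and 0 CPM on day 3, 85.6, 96.2 and 5.78 CPM on day 6 and 33.7, 56.4, 312 and 257 CPM on day 9. Its log2 rise was 6.61 ± 1.22 (edgeR adjusted p = 0.011), and the call was lost without the 3 libraries that stood apart (0.0539). Chil3, a chitinase-like protein of myeloid cells, was at 0.421, 0.0798, 0.227 and 0 CPM on day 3 and 19.6, 21.3, 3.31 and 1.79 CPM on day 9, so that its fitted change (5.90 ± 1.5, edgeR adjusted p = 0.033) rests on very few day 3 reads. Its call was lost without any 1 of 7 libraries (PIB d3 CD45+ replicates 1 to 4, PIB d6 CD45+ replicate 1 and PIB d9 CD45+ replicates 1 and 3), with adjusted p from 0.0504 to 0.0885. It was also lost without the low-count filter (0.111) and without the 3 libraries that stood apart (0.0854). Replicates 3 and 4 of day 9 differed from replicates 1 and 2 in these genes: they were the high ones for Cxcl13 and the low ones for Chil3. Tspan13, a tetraspanin, was at 1.24 and 1.67 CPM in day 9 replicates 1 and 2 and at 14.1 and 29.6 CPM in replicates 3 and 4 (3.87 ± 0.95, edgeR adjusted p = 0.028), and its call was lost without any 1 of 6 libraries (PIB d3 CD45+ replicates 1 to 4 and PIB d9 CD45+ replicates 3 and 4; adjusted p 0.0509 to 0.0792), as well as without the low-count filter (0.1004), without the 3 libraries that stood apart (0.1885) and in the fit with the other PIB gates (0.0554). Ccl11, the chemokine eotaxin, was at 0.842, 0.718, 0.681 and 0 CPM on day 3 and 11.9, 12.1, 45.5 and 61.1 CPM on day 9 (5.85 ± 1.13, edgeR adjusted p = 0.014). Its call was lost with the replicate number as a block (edgeR adjusted p = 0.0516).

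Other large rises were even across the day 9 libraries. Prelp, a leucine-rich matrix proteoglycan, was at 0.561, 0.638, 1.29 and 2.02 CPM on day 3, 4.58, 4.99 and 5.25 CPM on day 6 and 15.9, 17.3, 13.0 and 11.5 CPM on day 9 (3.66 ± 0.36, edgeR adjusted p = 7.6e-04). The 3 days did not overlap. Lcn2, an iron-sequestering lipocalin, was at 37.0, 17.5, 15.8 and 9.90 CPM on day 3, 113, 133 and 22.6 CPM on day 6 and 253, 264, 258 and 204 CPM on day 9 (3.61 ± 0.56, edgeR adjusted p = 0.0069). Pamr1, a secreted regeneration-associated protein, rose by 3.58 ± 0.32 (edgeR adjusted p = 7.2e-04) and Dpt, the matrix protein dermatopontin, by 3.54 ± 0.70 (0.013). The calls of these 4 held in every alternative. Of the largest falls, Dhrs9, a retinol-handling dehydrogenase, was at 38.6, 45.1, 29.4 and 70.0 CPM on day 3, 12, 13.7 and 27.3 CPM on day 6 and 3.86, 8.99, 4.85 and 2.31 CPM on day 9 (-3.15 ± 0.44, edgeR adjusted p = 0.0042). Bcat1, an enzyme of branched-chain amino acid breakdown, fell by 2.69 ± 0.39 (edgeR adjusted p = 0.0040). Day 9 lay below the earlier days for the 2 genes, and their calls also held in every alternative.

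**Figure D4:**
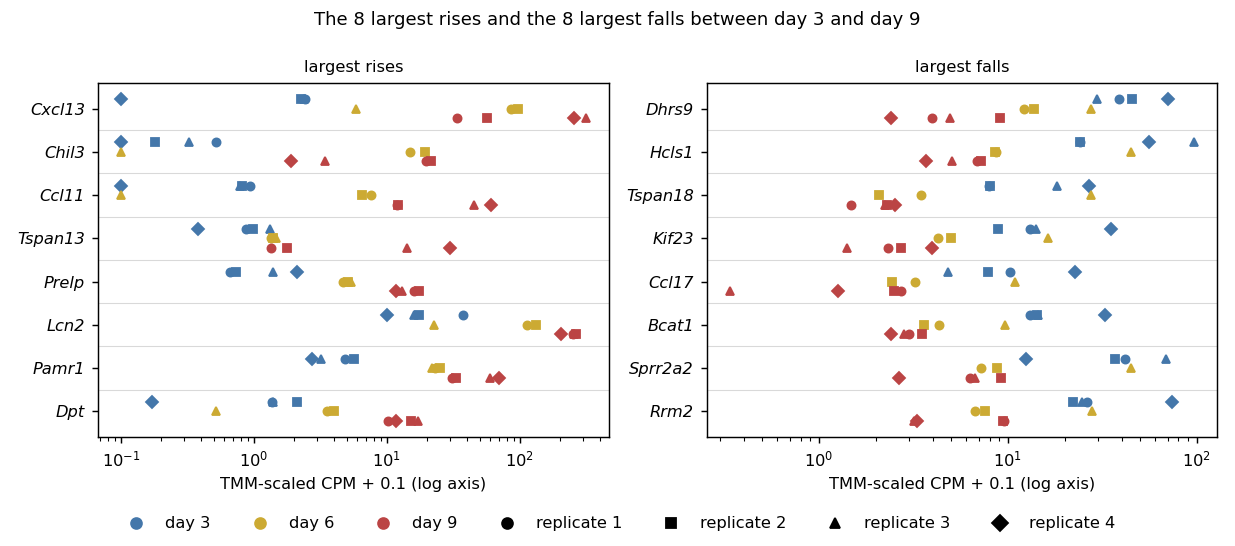
Levels of the 8 genes with the largest called rise and the 8 with the largest called fall from day 3 to day 9 in the PIB CD45+ gate, on a log axis of CPM + 0.1, by day: points are libraries. Cxcl13, Chil3 and Tspan13 split day 9 into replicates 1 and 2 against 3 and 4, while Lcn2 stays within 204 to 264 CPM on that day.

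Day 6 lay between the ends for most genes. Its mean was between the day 3 and day 9 means for 579 of the 605 genes called higher (95.7%) and 335 of the 340 called lower (98.53%), beside 56.06% of all tested genes. The first percentages share their end groups with the call and are given as descriptions. The median log2 change of the genes called higher was 0.82 from day 3 to day 6 and 0.75 from day 6 to day 9, and that of the genes called lower -0.69 and -0.77. Between day 6 and day 3 edgeR called 4 genes higher (0.0219%), among them H2-Aa, H2-Eb1 and Pamr1, and 0 lower (0%), with 1920 genes at an unadjusted p under 0.05. With the replicate number as a block 1 of the 4 was called, H2-Aa (2.60, edgeR adjusted p = 0.0220), while H2-Eb1 had an adjusted p of 0.0516 and Pamr1 of 0.147. DESeq2's Wald test called 77 and 13. The counts rested on PIB d6 CD45+ replicate 3: without it 71 were called higher and 36 lower, and without the 3 libraries that stood apart 104 and 27. The 4 higher calls became 1 without PIB d3 CD45+ replicate 1 or PIB d6 CD45+ replicate 1 or 2 and 0 without PIB d3 CD45+ replicate 2. Between day 9 and day 6 edgeR called 0 genes (0%), with 1413 at an unadjusted p under 0.05, and DESeq2 called 42 higher and 9 lower. It became 1 higher without PIB d3 CD45+ replicate 4 and 1 lower without PIB d9 CD45+ replicate 2.

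The day course was then compared with that of 2 other sorts in 1 edgeR fit of 18653 genes and 26 libraries. In PIB double positive cells 2023 genes (10.8%) were called between day 9 and day 3, of which 511 (2.74%) were higher and 1512 (8.11%) lower. The difference between the CD45+ and the double positive course was called for 2 genes (0.0107%), 1 above 0 (0.00536%) and 1 below 0 (0.00536%), with 2969 genes at an unadjusted p under 0.05. DESeq2's Wald test called 109 and 15. Among the 543 tested members of the 38 gene lists edgeR called 0 for this difference, with 73 at an unadjusted p under 0.05, and DESeq2 called 2 above and 4 below 0. The 1 below was Sf3b5, a splicing factor subunit, which differed by -0.18 in the CD45+ gate and 1.14 in double positive cells, a difference of -1.32 ± 0.20 (edgeR adjusted p = 0.0139). The 1 above was E230001N04Rik, at under 1 CPM, named after its values were seen. These counts were 0 without PIB d3 CD45+ replicate 2 or PIB d3 tdT+CD45+ replicate 4 and at most 6 above and 3 below, without PIP d3 CD45+ replicate 5. The count above 0 was 5 without PIB d9 tdT+CD45+ replicate 5 and 2 without PIB d3 CD45+ replicate 3 or 4, PIB d9 CD45+ replicate 4, PIB d3 tdT+CD45+ replicate 1 or PIB d9 tdT+CD45+ replicate 1 or 4. The count below 0 was 2 without PIB d3 CD45+ replicate 4. Xcr1, which fell by 1.15 in the CD45+ gate and had a log2 change of 0.14 in double positive cells, differed by -1.28 ± 0.25 (edgeR adjusted p = 0.11) and was not called. Of 20 tested macrophage and monocyte genes 14 had an unadjusted p under 0.05 for this difference, and DESeq2 called 3 below 0. Their median difference was -2.36, with median log2 changes of -0.80 in the CD45+ gate and 1.62 in double positive cells. In the fit of the 3 days the CD45+ median of this list was 0.89 without PIB d3 CD45+ replicate 3.

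Against the PIP course the PIB CD45+ course differed more widely. In PIP CD45+ cells 1364 genes (7.31%) were called, 544 higher (2.92%) and 820 lower (4.4%). The difference of the 2 day effects was called for 1381 genes (7.4%), with 941 (5.04%) above 0 and 440 (2.36%) below 0. The count above 0 was 605 without PIP d9 CD45+ replicate 4, and the counts were 442 and 290 without the 3 PIB libraries that stood apart, a fit with 2 PIB d3 CD45+ libraries. Among 34 matrix genes 21 were called above 0 and 0 below, with a median difference of 1.81. Col3a1, a fibrillar collagen, rose by 1.504 in the PIB CD45+ gate and fell by 3.87 in PIP (difference 5.38 ± 0.54, edgeR adjusted p = 1.8e-06). Thbs2 differed by 1.38 ± 0.27 (edgeR adjusted p = 0.0024) and Fn1 by 2.11 ± 0.57 (0.0186), the last lost without the 3 libraries that stood apart. Of the 34 interferon-stimulated genes 14 were called below 0 and 0 above, and of the 24 genes of cholesterol and fatty acid synthesis 11 below and 0 above. Msmo1 fell by 1.16 in PIB and had a log2 change of 0.83 in PIP (difference -1.99 ± 0.18, edgeR adjusted p = 3.6e-07). Naaa differed by -1.91 ± 0.31 (edgeR adjusted p = 5.0e-04) and Coro1a by -1.38 ± 0.29 (0.0040).

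The counts of cell division and class II genes called for the difference between the cocktails were close to the 7.4% of all genes. Of 22 G2 and M phase genes 0 were called for the difference by edgeR and 0 by DESeq2. An unadjusted p under 0.05 was found for 3 of the 22, beside 5530 of all 18653 genes. Over the days 20 of the 22 were called lower in the PIB CD45+ gate, 21 in PIB double positive cells and 19 in PIP. The Top2a log2 change was -2.48, -2.04 and -1.51 in that order, and the difference from PIP was -0.96 ± 0.38 (edgeR adjusted p = 0.090). Of 10 class II pathway genes 1 was called for the difference, below 0, the protease gene Ctss, named after its values were seen. H2-Aa rose by 2.52, 3.02 and 3.20, and its difference from PIP was -0.68 ± 0.43 (edgeR adjusted p = 0.30). The H2-Eb1 rises were 2.33, 3.00 and 2.04. A difference that misses the threshold does not show that the courses were alike. PIP d3 CD45+ replicate 5 had under 5 CPM of Ptprc, and without it the counts of the PIB minus PIP difference were 635 above 0 and 336 below 0.

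**Figure D5:**
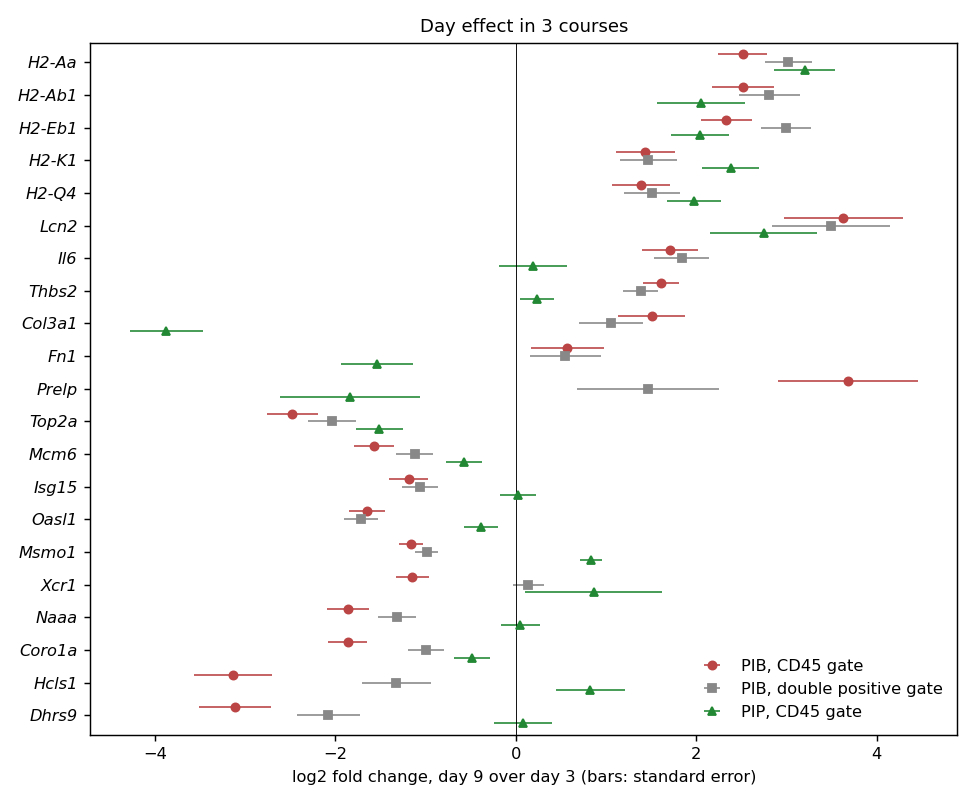
Log2 change from day 3 to day 9 of 21 genes in PIB CD45+, PIB double positive and PIP CD45+ cells, from 1 fit of 26 libraries: points are estimates and bars their standard errors. Col3a1 lies at 1.504 in the PIB CD45+ gate and at -3.87 in PIP, while H2-Aa lies between 2.52 and 3.20 in all 3.

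Markers of unrelated cells were mostly too low to test. Of 12 granulocyte and mast cell markers 2 passed the low-count filter, of 9 B cell markers 3, of 10 T and NK cell markers 1, of 10 endothelial markers 7, of 9 epithelial markers 5, of 9 neural and glial markers 6, and of 10 erythroid and platelet markers 3. Their summed levels were highest for the neural and glial list, at 185.6 CPM in PIB d3 CD45+ replicate 4 and 146.4 CPM in PIB d6 CD45+ replicate 3 against 21.6 to 37.0 CPM elsewhere, with Nes at 155 and 122 CPM. The T and NK cell list summed to 0.708 to 5.58 CPM. Of 5 tested skeletal muscle markers 2 were called higher, Des (1.77 ± 0.49) and Pax7 (1.29 ± 0.34). Des was at 4.69, 4.21, 4.61 and 14.2 CPM on day 9 and at 1.12 to 3.90 CPM on day 3, and its call was lost without PIB d3 CD45+ replicate 1, 2 or 3, PIB d6 CD45+ replicate 1 or 2 or PIB d9 CD45+ replicate 3 or 4 (edgeR adjusted p from 0.0537 to 0.1299), with day 6 left out of the fit (0.0505) and in the fit with the other PIB gates (0.164). The count of the list was 0 without PIB d3 CD45+ replicate 1 or 2 or PIB d9 CD45+ replicate 3 or 4, and 1 without PIB d3 CD45+ replicate 3 or 4 or PIB d6 CD45+ replicate 1 or 2. The platelet chemokine Ppbp was called lower (-2.04 ± 0.46), from 15.5, 17.6, 14.6 and 7.88 CPM to 2.48, 4.79, 2.84 and 3.20 CPM, a call lost without PIB d9 CD45+ replicate 1, 3 or 4 (edgeR adjusted p from 0.0517 to 0.0611). No other tested member of these lists was called by edgeR with all libraries. Single endothelial, epithelial and skeletal muscle genes were called lower without 1 of PIB d3 CD45+ replicate 3, PIB d6 CD45+ replicate 3 and PIB d9 CD45+ replicate 1, and by DESeq2's Wald test these lists gave 2, 1 and 1.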

How the data were processed

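The authors deposited whole-number counts per gene for 167 libraries of total RNA, made from 5000 cells with a stranded pico-input SMARTer kit and 13 to 14 PCR cycles, per the labels' protocols. The columns of 122 of these libraries enter no comparison and were not used here. The submitters' processing notes name STAR 2.7.9a, Salmon 1.10.1 and mm10. Which tool counted, the annotation and the strand setting are not given in the sources used here. Gene identifiers with no name in the reference table held 8.29% to 22.4% of counts and were kept in library sizes and tests (410 of 18226 tested).

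The 11 libraries of the PIB CD45+ gate were fitted together with edgeR 4.0.16 (R 4.3.3; TMM scaling, filterByExpr, robust quasi-likelihood fit), and 26 libraries in a second fit for the differences from other sorts. Fold changes are on the log2 scale, as fitted by edgeR with its default prior count. A prior count of 2 entered only the log2 CPM used to correlate libraries. Duplicate libraries were looked for, and within-group pairs differed beyond sampling noise (chi-square per degree of freedom at least 4.42 in 15 pairs, with a median of 47.6). The lowest value was that of PIB d9 CD45+ replicates 3 and 4, and the next lowest was 14.5. The labels do not say whether those 2 libraries came from separate cultures. In counts simulated for day 9 against day 3, calls were made for 81% of the genes set to differ 4-fold, for 28% of those set to differ 2-fold and for 0.0555% of genes set to be equal. Each gene was drawn separately at its fitted spread, so libraries that stand apart in many genes were not simulated. These rates therefore need not hold for the measured libraries.

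Same-numbered day 3 and day 6 libraries deviated from their group means together (correlations of 0.218, 0.537 and 0.256 over 3 pairs). However, PIB d3 CD45+ replicate 1 correlated more with PIB d6 CD45+ replicate 2 (0.422) than with replicate 1. PIB d6 CD45+ replicate 3 correlated more with PIB d3 CD45+ replicate 4 (0.485) than with replicate 3. The numbers thus do not clearly pair the libraries, the labels state no pairing, and the replicate block is given as an alternative only. Same-numbered libraries of the other pairs of days correlated between -0.376 and 0.217.

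The members and the gene lists were chosen with earlier results of these data known. Named were the transduced and sort genes, from each list up to 4 separated called members of at least 5 CPM, up to 2 called the opposite way and its most highly expressed uncalled member, the 8 largest separated rises and falls of at least 10 CPM, and the 4 largest called differences each way from each interaction test. Other called members of lists with few calls and other genes of those lists were named after their values were seen. Some genes were tested with the rest and are not reported here. Alternatives covered DESeq2 1.42.0 (size factors and Wald test), no low-count filter, only genes of at least 10 CPM, the replicate number as a block, no unnamed identifiers (chosen after seeing the data), libraries left out and other sets of libraries in the fit. Promoter letters are RefSeq's for GRCm38.p6, read 250 bases before each start. Measurements of the other sorts, cocktails and splenic subsets that are not named above were not analysed here.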

Additional observations from a re-analysis of the deposited data

Results flagged for a closer look

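Single libraries lay apart from their group, relative to its range, in 30 of 230 groups of 4 libraries, taken over 115 named genes on days 3 and 9 (on log2 of CPM + 0.1, the gap to the nearest library, divided by the group's range, was above Dixon's 95% critical value). Chance puts about 1 group in 20 there. Of the 30, 19 were in PIB d3 CD45+ replicate 4 and 5 in replicate 3 of that day. A small gap also passes where the other libraries nearly coincide. In PIB d3 CD45+ replicate 3 Cyp51 was at 18.2 CPM against 19.5 to 19.55 CPM in the others, and Lyz2 at 929.9 CPM against 73.3 to 79.6 CPM. Phgdh in PIB d9 CD45+ replicate 3 was at 25.9 CPM against 22.8 to 23.1 CPM. Ccl11 at 0 CPM in PIB d3 CD45+ replicate 4 stood against 0.681 to 0.842 CPM.

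PIB d3 CD45+ replicate 4 was low for the protease inhibitor gene Cst3 (302.5 CPM), Cybb of the phagocyte oxidase (9.27 CPM), H2-Q7 (2.86 CPM), H2-K1 (98.0 CPM), Il1r1 (21.1 CPM) and Dcn (8.71 CPM), and at 0 CPM for Cxcl13 and for Ccl11. It was high for the transcription factor gene Tead1 (460.9 CPM) and for the cycling genes Ccnb1 (12.6 CPM), Cdk1 (20.1 CPM), Rrm2 (73.5 CPM), Mcm5 (22.1 CPM), Mcm6 (38.3 CPM) and Rrm1 (70.5 CPM). It was also high for the amino acid enzymes Psat1 (69.3 CPM), Phgdh (148 CPM) and Bcat1 (32.5 CPM) and for the neural and mesenchymal filament gene Nes (155 CPM).

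In PIB d3 CD45+ replicate 3 the outlying values were Lyz2 at 929.9 CPM, Lpl at 150.9 CPM, Mmp2 at 78.5 CPM, Cyp51 at 18.2 CPM and Ccdc162 at 0.757 CPM. On day 9 they were Isg15 at 53.4 CPM and Pltp at 417 CPM in replicate 2, Phgdh at 25.9 CPM in replicate 3, and Cyp51 at 6.54 CPM, Des at 14.2 CPM and Lcn2 at 204 CPM in replicate 4.

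Over all 18653 genes the interaction test of edgeR called 7.4% for the difference from PIP and 0.0107% for that between gates. The named genes were chosen in part by that test and by their day 9 against day 3 calls. Counts among them are therefore raised by the choice and are descriptions alone. The day 3 to day 9 effect differed between sorts by this test for 50 named genes. For 1, Sf3b5, the PIB CD45+ effect lay 1.32 below that of double positive cells on the log2 scale (-1.32). For the other 49 it differed from PIP, and 23 of these calls held in every alternative while 24 were lost without the PIB libraries that stood apart. In this fit those were PIB d3 CD45+ replicates 3 and 4, since it holds no day 6 library.

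Differences that held were below 0 for Batf3 (-2.50), Itgam (-3.82), Naaa (-1.91), Cd24a (-2.53), Ccl17 (-4.03), Cd86 (-3.63), Hcls1 (-3.97), Coro1a (-1.38), Plcg2 (-1.84), the saposin gene Psap (-1.79), Oasl1 (-1.26), Cmpk2 (-1.21), Ccl2 (-1.72), Idi1 (-2.34), Msmo1 (-1.99), Cyp51 (-1.86), Ppbp (-2.81) and Dhrs9 (-3.19). They were above 0 for Tlr5 (2.74), Thbs2 (1.38), Col3a1 (5.38), Des (3.51) and Prelp (5.52). Batf3 was delivered in PIB and not in PIP, and these counts cannot separate delivered copies from the cells' own gene.

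Differences lost in at least 1 alternative were below 0 for Bst2 (-1.17), Itgb2 (-1.43), B2m (-1.14), Ifit2 (-2.09), Isg15 (-1.21), Pf4 (-3.72), Tspan18 (-2.30), C1qa (-6.81), Marco (-5.95), Slamf7 (-5.88) and Clec4n (-5.61). They were above 0 for Il6 (1.52), Dcn (2.41), Mmp2 (2.57), Fn1 (2.11), Cdkn1c (1.64), Vegfa (1.91), Ebf1 (1.69), Ccl11 (3.55), Tspan13 (4.52), Pamr1 (1.704), Dpt (3.88), Olfr698 (20.99), Ccdc184 (12.40), Apol8 (9.10) and Ccdc162 (8.83). The last 4 are fitted values of genes near 0 in some groups. They rest on PIB d9 CD45+ replicates 3 and 4, where Ccdc184 was at 158 and 239 CPM against 9.66 and 1.52 CPM in replicates 1 and 2.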

How the results depend on the processing

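Where a count below moved, the cause was not tested. Counts when 1 library was left out ran from 230 to 721 higher and 125 to 437 lower for day 9 against day 3, 0 to 71 and 0 to 36 for day 6 against day 3, and 0 to 1 each way for day 9 against day 6. For the difference between gates they ran from 0 to 6 above and 0 to 3 below 0, and for that between PIB and PIP from 605 to 1111 above and 321 to 614 below.

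With genes of at least 10 CPM the day 9 against day 3 counts were 302 higher and 210 lower, that of the gate difference 0 above and that of the PIB minus PIP difference 427 above. Without the low-count filter 553 genes were lower on day 9 than on day 3, 90 higher and 31 lower on day 6 than on day 3, and 86 higher and 62 lower on day 9 than on day 6, with 7 below 0 between gates and 409 above 0 between PIB and PIP. DESeq2's Wald test gave 77 and 13, 42 and 9, and 109 and 15 in the day 6 against day 3, day 9 against day 6 and gate comparisons. A fit with the other PIB gates gave 1078 higher and 537 lower for day 9 against day 3, 88 and 15 for day 6 against day 3, and 2 and 1 for day 9 against day 6. Without the 3 PIB libraries that stood apart, left out after seeing the data, the counts were 206 lower (day 9 against day 3), 104 and 27 (day 6 against day 3), 1 and 1 (day 9 against day 6), 0 above 0 (gates) and 442 and 290 (PIB minus PIP). In that setting the differences of C1qa (0.10) and Marco (1.15) from PIP changed sign, with neither called. Without PIP d3 CD45+ replicate 5, the library under 5 CPM of Ptprc, the gate difference gave 6 above and 3 below.

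Day 3 and day 9 libraries shared only a number: deviations of the same-numbered ones correlated between -0.376 and -0.073, and not every library correlated best with its own number. The replicate block gave 433 higher and 245 lower for day 9 against day 3, 1 higher for day 6 against day 3, 3 above and 2 below 0 between gates and 556 above 0 between PIB and PIP. With the block the day 9 against day 3 calls of Ccl11 (edgeR adjusted p = 0.0516), Mmp2 (0.0515), Il1r1 (0.0543), Dcn (0.0606), Ccl17 (0.0939) and Tspan13 (0.0948) were lost, and 1 lipid uptake and efflux gene was called higher. At 6912082 counts, the shallowest library, genes under 0.434 CPM cannot be told from 0. Leaving out gene identifiers with no name, added after seeing the data, gave 625 higher and 321 lower for day 9 against day 3 and 939 above and 386 below 0 between PIB and PIP. DESeq2 size factors in edgeR kept all 10 counts within 1.5 times of those reported.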
